A study of Mus musculus with 2 samples.

Results

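The genes described here are 6 serine protease inhibitors (serpins) of immune cells, Serpina3f, Serpina3g, Serpinb9, Serpinb6a, Serpinb6b and Serpinb9b, out of 27998 genes in each count matrix. They were chosen by their measured levels across cell classes and between the libraries of these same data, so those levels and differences are given as descriptions, without tests. The cells were immune cells of B16Ova tumors, a mouse B16 melanoma line carrying ovalbumin, taken from female mice 13 days after injection under the skin. The WT mice were E8i-cre negative and Tcf7 FL/FL. The KO mice (Tcf7 cKO) were E8i-cre positive and Tcf7 FL/FL, so both groups carried the floxed Tcf7 allele and the KO group also carried the recombinase. The E8i enhancer drives Cre in mature CD8 T cells, and Tcf7 encodes TCF-1, a transcription factor of naive and memory-like T cells. Each group was 1 library made from the pooled cells of 3 tumors, and the barcodes do not tell the tumors apart. There was therefore no replicate check, no p-value was computed, and genotype and library cannot be told apart. Equal numbers of sorted CD8 T cells, CD4 T cells, CD11c+ MHCII+ cells and other CD45+ cells were mixed, so the shares of these classes were set by the sort.

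Serpins trap a protease by offering it a reactive loop as bait and then locking it in an inactive complex. Many serpins of clade A are secreted, whereas those of clade B stay in the cytoplasm and nucleus. Serpinb9, the mouse gene for protease inhibitor 9, is known to block granzyme B and to protect killer lymphocytes and dendritic cells from the granule contents of killer cells. Serpinb6a and Serpinb6b belong to the mouse Serpinb6 family, whose first member inhibits cathepsin G and other serine proteases, and Serpinb9b is a close relative of Serpinb9. Serpina3g, also called Spi2A, is an intracellular member of clade A known for inhibiting cathepsins that leak from lysosomes and for its induction by interferon gamma and NF-kB signalling, and Serpina3f is its neighbour in the same gene cluster.

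The 6 genes lie in 2 clusters of protein-coding genes (GRCm38 coordinates). Serpina3f (ENSMUSG00000066363) spans chr12:104214544-104221129 and Serpina3g (ENSMUSG00000041481) chr12:104236245-104241939, both on the plus strand and 15.1 kb apart. On chromosome 13, Serpinb6b (ENSMUSG00000042842, chr13:32965209-32979067), Serpinb9 (ENSMUSG00000045827, chr13:33003250-33017957) and Serpinb9b (ENSMUSG00000021403, chr13:33027416-33041884) follow each other on the plus strand with gaps of 24.2 and 9.46 kb. Serpinb6a (ENSMUSG00000060147, chr13:33917918-34002794, minus strand) lies a further 876 kb away. The promoter windows below, 250 bases before to 50 bases after the RefSeq start site (GRCm38.p6), are shown for the pair of neighbours that were high in the same cells, Serpina3f and Serpina3g, and for the granzyme B inhibitor Serpinb9. Capitals mark a match to GAS, the gamma interferon activation site (letters TTCNNNGAA), to the NF-kB motif, or to ISRE, the interferon-stimulated response element (letters GAAANNGAAA). Each motif was searched on both strands.
Serpina3f (first of its RefSeq windows, chr12:104214294-104214593, plus strand, GAS): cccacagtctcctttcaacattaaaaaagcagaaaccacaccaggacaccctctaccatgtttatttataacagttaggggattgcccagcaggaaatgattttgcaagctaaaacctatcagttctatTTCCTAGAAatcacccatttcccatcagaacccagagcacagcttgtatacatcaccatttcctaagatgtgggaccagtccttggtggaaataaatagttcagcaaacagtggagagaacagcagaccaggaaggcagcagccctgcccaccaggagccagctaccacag
Serpina3g (chr12:104235897-104236196, plus strand, NF-kB and then GAS): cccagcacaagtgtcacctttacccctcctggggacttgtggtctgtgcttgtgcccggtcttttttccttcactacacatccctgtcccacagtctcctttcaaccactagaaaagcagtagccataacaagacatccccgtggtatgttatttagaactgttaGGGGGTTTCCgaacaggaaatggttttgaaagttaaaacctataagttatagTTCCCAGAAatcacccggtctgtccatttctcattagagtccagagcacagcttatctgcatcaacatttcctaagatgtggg
Serpinb9 (chr13:33004291-33004590, plus strand, ISRE): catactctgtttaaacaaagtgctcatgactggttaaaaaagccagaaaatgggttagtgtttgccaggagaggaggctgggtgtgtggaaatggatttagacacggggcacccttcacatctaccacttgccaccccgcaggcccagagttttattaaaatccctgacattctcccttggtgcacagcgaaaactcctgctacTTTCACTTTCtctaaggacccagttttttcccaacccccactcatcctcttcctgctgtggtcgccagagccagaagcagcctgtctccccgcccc

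The GAS match lay at positions -121 to -113 from the start site in the Serpina3f window and at -33 to -25 in the Serpina3g window, and the NF-kB match of Serpina3g at -85 to -76. The ISRE match of Serpinb9 lay at -46 to -37. The first window of Serpinb6a held 2 GAS matches and 1 ISRE match, and its other window held none. The Serpinb9b window held 1 match to a TCF motif (CTTTGAA or CTTTGAT), and that of Serpinb6b held none of these motifs. Of 32851 mouse promoter windows of this length, 8.30% held GAS, 3.44% ISRE, 8.46% the NF-kB motif and 8.65% the TCF motif. A match describes the letters and is not shown to be a bound site.

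Close relatives share sequence, which limits how reads can be assigned. The longest protein-coding transcripts of Serpina3f and Serpina3g were 89.5% identical over 1732 aligned bases, those of Serpinb6a and Serpinb6b 86.1% over 1202 bases, and those of Serpinb9 and Serpinb9b 82.9% over 1911 bases. Of all 50-base windows of each transcript, 10.7% of Serpina3f and 16.0% of Serpina3g occurred in the transcripts of other genes. The share was 0.380% for Serpinb9, 0.499% for Serpinb9b, 2.68% for Serpinb6a and 3.13% for Serpinb6b. In Serpina3g the shared windows made up 41.0% of the first 500 bases and 2.44% of the last 500. Which end of the transcript was read is not known from the labels, so the values of Serpina3f and Serpina3g carry this uncertainty.

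The libraries held 1120 (WT) and 1219 (KO) barcodes with 9283014 and 11758449 unique molecular identifiers (UMIs), and 983 and 1083 cells were kept, with medians of 6168 and 8117 UMIs. The libraries shared 1 barcode. Classes were named from marker genes after clustering without the serpins and granzymes, and each name means a cluster resembling that type. T cells were then split by UMIs of Cd8a or Cd8b1, Cd4 and Foxp3. CD8 T cells numbered 171 (WT) and 185 (KO), conventional CD4 T cells 89 and 90, type 1 conventional dendritic cells (cDC1) 168 and 187, type 2 (cDC2) 54 and 96, mature dendritic cells 98 and 60, and macrophages 75 and 71. These 6 classes had at least 50 cells in both libraries and were compared. Tcf7 was at 158 (WT) and 53.4 (KO) CPM (counts of a class scaled to a common total) in CD8 T cells, but at 398 and 322 CPM in their naive-like cells. The matrices do not show whether these counts lie inside the deleted part.

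In the KO library Serpina3g was higher than in the WT library in 5 of the 6 compared classes, from CD8 T cells to all 3 dendritic cell classes. Levels are computed from the UMIs summed over a class, intervals are exact 95% intervals that cover counting error only, and a gene is called where it differed at least 1.5-fold with an interval excluding 1, given a mean of at least 10 CPM. Serpina3f, its neighbour, was called higher in 2 classes, Serpinb9 in 3, Serpinb6a in 2, Serpinb6b in 2 and Serpinb9b in 1. In CD8 T cells 5 of 6 tested members were higher and 0 lower, where 5.68% of 6913 tested genes were higher and 6.13% lower. In conventional CD4 T cells 1 of 5 was higher (3.73% of genes) and 0 lower (4.17%). In cDC1 3 of 3 were higher (2.36%) and 0 lower (3.67%), and in cDC2 3 of 4 (4.18%) and 0 (4.55%). In mature dendritic cells 2 of 4 were higher (3.04%) and 0 lower (3.65%), and in macrophages 1 of 4 (4.42%) and 0 (5.22%). The members were chosen with these contrasts in view, and members under the 10 CPM mean were not tested, so nothing is read from these counts beyond the values. The median log2 ratio of the tested members was 0.87 in CD8 T cells, 1.1 in cDC1, 1.41 in cDC2 and -0.12 in macrophages, against 0.03, 0.01, -0.01 and -0.01 over all tested genes.

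**Figure D1:**
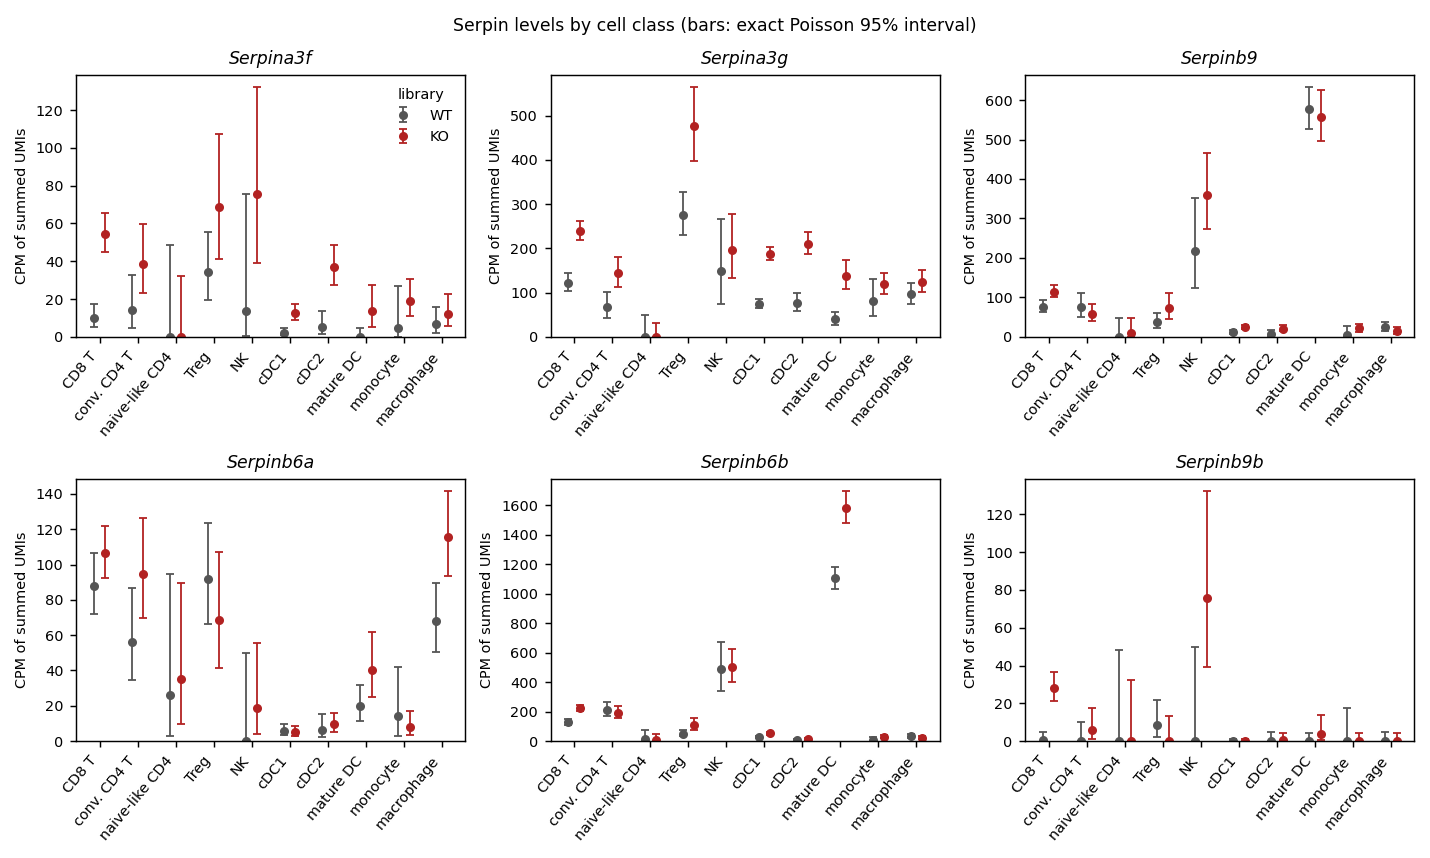
Level of each serpin in CPM (linear axis with its own scale in each panel, bars are exact 95% Poisson intervals) in 10 cell classes, WT in grey beside KO in red. Serpinb9 and Serpinb6b peak in mature dendritic cells (578 and 1105 CPM in WT), whereas Serpina3g is at 0 in naive-like CD4 T cells and highest in regulatory T cells.

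Serpina3g stood at 0 UMIs in naive-like CD8 T cells of both libraries (41 WT and 44 KO cells, 0 cells with a UMI, where a floor of 3 counts allows shares of up to 7.32% and 6.82%) and in naive-like CD4 T cells. Regulatory T cells had 275 (WT) and 476 (KO) CPM and NK cells 149 and 195, from 58 and 30 and from 15 and 27 cells. CD8 T cells had 122 CPM in WT and 240 in KO, a ratio of 1.96 (1.63 to 2.37). Conventional CD4 T cells had 67.5 and 143 CPM, a ratio of 2.12 (1.32 to 3.53). Naive-like cells thus had no detected Serpina3g in either library, while the other T cell classes and NK cells had it in both.

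Among antigen-presenting cells, cDC1 had 74.2 CPM of Serpina3g in WT and 188 in KO, a ratio of 2.54 (2.16 to 2.99). It was seen in 40 of 168 WT and 81 of 187 KO cDC1. After each cell was thinned to 2000 UMIs the shares were 9.04% and 13.0%, a difference of 3.94 percentage points (range -5.97 to 13.5). The shares expected over all random draws of the thinning were 8.59% and 17.3%, a difference of 8.67 points. The range combines the limits of both shares and is too wide to decide whether the share of cells differed at equal depth. In the main cDC1 cluster the ratio was 2.94 (2.44 to 3.54), and in the cycling cDC1 cluster 1.5 (1.04 to 2.19). cDC2 had 77.2 and 210 CPM, a ratio of 2.73 (2.05 to 3.67), with thinned shares of 15.4% and 30.9%. That difference of 15.5 percentage points had a range of -6.35 to 34.3, again too wide to decide. Mature dendritic cells had 39.2 and 138 CPM, a ratio of 3.52 (2.29 to 5.52). Macrophages had 96.1 and 124 CPM, and their ratio of 1.29 (0.946 to 1.77) was not called. T cell marker genes summed to 254 (WT) and 102 (KO) CPM in cDC1 and to 451 and 393 CPM in cDC2, and their part in the Serpina3g values was not tested.

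Among classes that were not compared the direction varied. T cells with no UMI of any co-receptor, 116 in WT and 133 in KO, went the other way and had 156 and 103 CPM of Serpina3g. The few plasmacytoid dendritic cells, 7 and 4, had 96.8 and 0 CPM. Another 29 WT and 13 KO cells formed a cluster with leading genes of both regulatory T cells and dendritic cells, left unnamed, with 45.8 and 80.1 CPM.

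Serpina3f followed Serpina3g at a lower count. CD8 T cells had 12 UMIs in WT and 110 in KO, or 9.86 and 54.4 CPM, a ratio of 5.52 (3.04 to 11). cDC2 had 5.23 and 37.1 CPM, a ratio of 7.10 (2.61 to 27.0). The interval lay above that of Serpina3g in CD8 T cells and overlapped it in cDC2. Conventional CD4 T cells had 14.1 and 38.3 CPM, and the ratio of 2.73 (0.985 to 9.34) just failed the interval. cDC1 had 2.18 and 12.8 CPM and fell under the 10 CPM mean. In mature dendritic cells Serpina3f had 0 UMIs in WT and 7 in KO, of which 6 were in 1 cell, and naive-like T cells had 0 in both libraries.

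**Figure D2:**
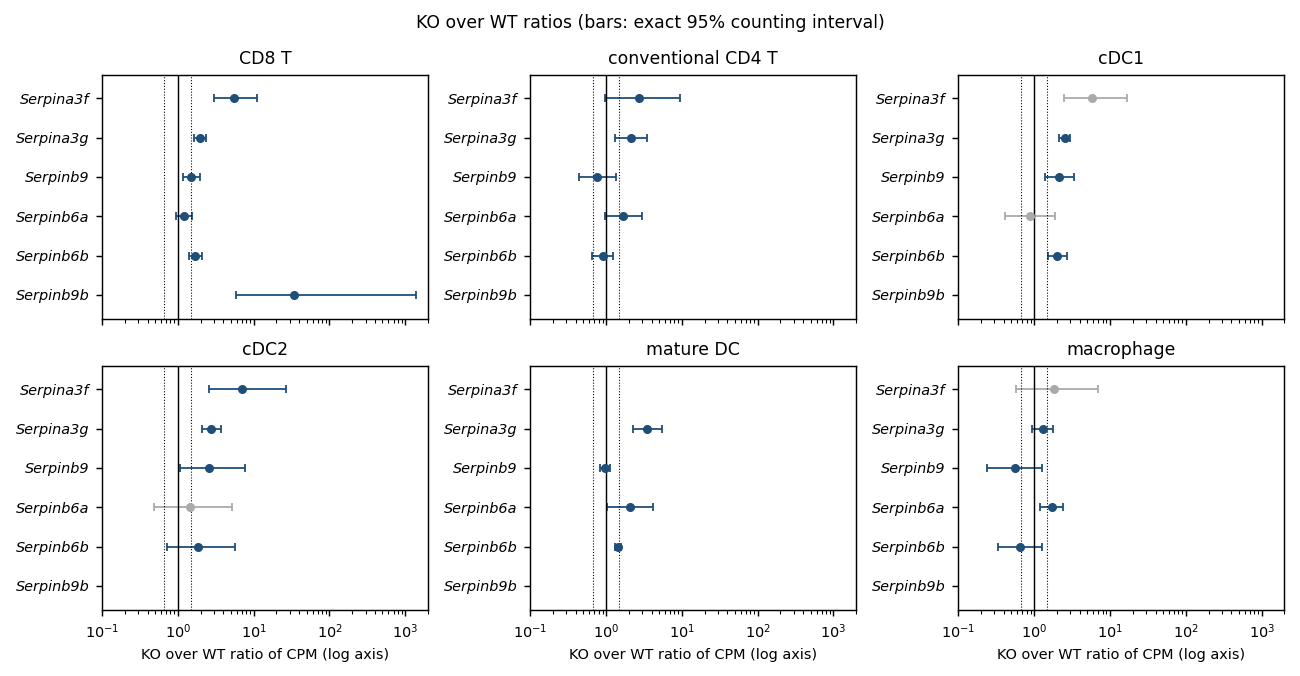
KO over WT ratio of CPM (log axis, bars are exact 95% counting intervals) for each serpin in the 6 compared classes; dotted lines mark 1.5-fold in either direction, grey points have a mean under 10 CPM, and a blank row has no ratio because a library had 0 UMIs. Serpina3g lies right of the dotted line in every panel but macrophages, where it is at 1.29.

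Serpinb9 and Serpinb6b had their highest levels, among classes of at least 50 cells, in mature dendritic cells, the CCR7+ FSCN1+ state that carries antigen to lymph nodes. Serpinb9 was at 578 (WT) and 558 (KO) CPM there, a ratio of 0.965 (0.831 to 1.12), and at 11.6 and 24.9 CPM in cDC1. Thinned shares of cells with Serpinb9 were 50.5% and 60.7% in mature dendritic cells, against 2.56% and 2.44% in naive-like CD8 T cells. Serpinb6b was at 1105 and 1584 CPM in mature dendritic cells, a ratio of 1.43 (1.3 to 1.58) that lay below the 1.5-fold threshold. The 2 genes were detected in the same mature cells: of WT cells with Serpinb9, 78.3% also had Serpinb6b, against 35.6% of cells without it, and in KO the shares were 88.2% and 54.5%. Gzmb was at 7.35 and 0 CPM in these mature dendritic cells, so both inhibitors were high in a class with little granzyme B RNA.

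In cDC1 both genes were low and higher in KO. Serpinb9 differed by 2.14 (1.40 to 3.34) and Serpinb6b, at 25.8 and 51.8 CPM, by 2.0 (1.51 to 2.69). Mature dendritic cell markers summed to 162 and 218 CPM in cDC1 of the WT and KO library, and their part in these differences was not tested. A cDC1 cluster of 7 cells in each library had Serpinb6b at 536 and 420 CPM, far above the 21.5 and 59.3 CPM of the main cDC1 cluster. Serpinb9 in cDC2, at 7.85 and 20.4 CPM, had a ratio of 2.60 (1.06 to 7.67). That call was lost without cycling cells (log2 ratio 1.23) and at a finer clustering (1.03), and the direction turned when classes were taken from marker UMIs alone (-0.16).

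In T and NK cells, Serpinb9 was at 76.4 (WT) and 115 (KO) CPM in CD8 T cells, a ratio of 1.5 (1.18 to 1.93) that sits at the threshold of the call. NK cells had 216 and 359 CPM. Conventional CD4 T cells had 76.0 and 58.5 CPM, a ratio of 0.771 that was not called. Serpinb6b was at 131 and 223 CPM in CD8 T cells, a ratio of 1.70 (1.42 to 2.05), and at 214 and 194 CPM in conventional CD4 T cells. NK cells had 487 and 504 CPM of Serpinb6b. Macrophages had low levels of both, 24.0 and 13.5 CPM for Serpinb9 and 32.0 and 20.9 CPM for Serpinb6b.

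Serpinb6a had another distribution. It was at 87.9 (WT) and 106 (KO) CPM in CD8 T cells, a ratio of 1.21 that was not called, and at 5.82 and 5.11 CPM in cDC1. NK cells had 0 and 18.9 CPM, and the few melanoma cells in the sort, 20 and 13, had 215 and 123 CPM. Macrophages had 68.1 and 116 CPM, a ratio of 1.70 (1.20 to 2.44), but 43 of the 94 KO UMIs were in 1 cell. Without the top cell of each library the log2 ratio there was 0.11, and as a mean over cells it was -0.24. In mature dendritic cells it was at 19.6 and 40.3 CPM, and this call too was lost without the top cell (log2 ratio 0.67).

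Serpinb9b was found in few cells, most of them in KO. CD8 T cells had 1 UMI in WT and 57 in KO, a ratio of 34.3 (5.92 to 1379), but the 57 UMIs lay in 6 cells and 28 of them in 1 cell. Without the top cell of each library the levels were 0 and 14.4 CPM, a mean under 10 CPM, so the call was lost. NK cells had 0 and 12 UMIs, the latter in 3 cells, and regulatory T cells 4 UMIs in 1 WT cell and 0 in KO. cDC1, monocytes and macrophages had 0 UMIs in both libraries.

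CD8 T cells were of different make-up in the libraries. Naive-like cells numbered 41 and 44, cells of a cluster led by Cd8b1 and Ctsw 81 (WT) and 50 (KO), cells of a cluster led by Prf1 and Xcl1 26 and 62, and cells of a cycling cluster 12 and 25. Cells with cycling genes also lay in other clusters and made up 12.3% of WT and 30.8% of KO CD8 T cells. Serpina3g in the Ctsw-led cluster was at 74.2 and 174 CPM, a ratio of 2.34 (1.38 to 4.01), and in the cycling cluster at 93.2 and 218 CPM, with a ratio of 2.34 (1.52 to 3.75). In the Prf1-led cluster it was at 247 and 310 CPM, and the ratio of 1.25 (0.988 to 1.60) was not called. Outside the naive-like cells as a whole the ratio was 1.83 for Serpina3g and 1.59 for Serpinb6b, while that of Serpinb9 fell to 1.41 and was not called.

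Serpina3f was highest in the Prf1-led cluster, at 19.0 (WT) and 73.2 (KO) CPM, a ratio of 3.84 (1.77 to 9.90), and in the cycling cluster, at 14.9 and 57.5 CPM. Serpinb6b differed by cluster in direction. It was at 94.1 and 215 CPM in the Ctsw-led and 158 and 313 CPM in the Prf1-led cluster, but at 228 and 139 CPM in the cycling cluster, a ratio of 0.610 (0.432 to 0.864). Serpinb9 was at 114 and 151 CPM in the Prf1-led cluster and 11.1 and 23.0 CPM in naive-like cells. Serpinb6a was at 171 and 129 CPM in the Prf1-led and 5.53 and 11.5 CPM in the naive-like cells.

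**Figure D3:**
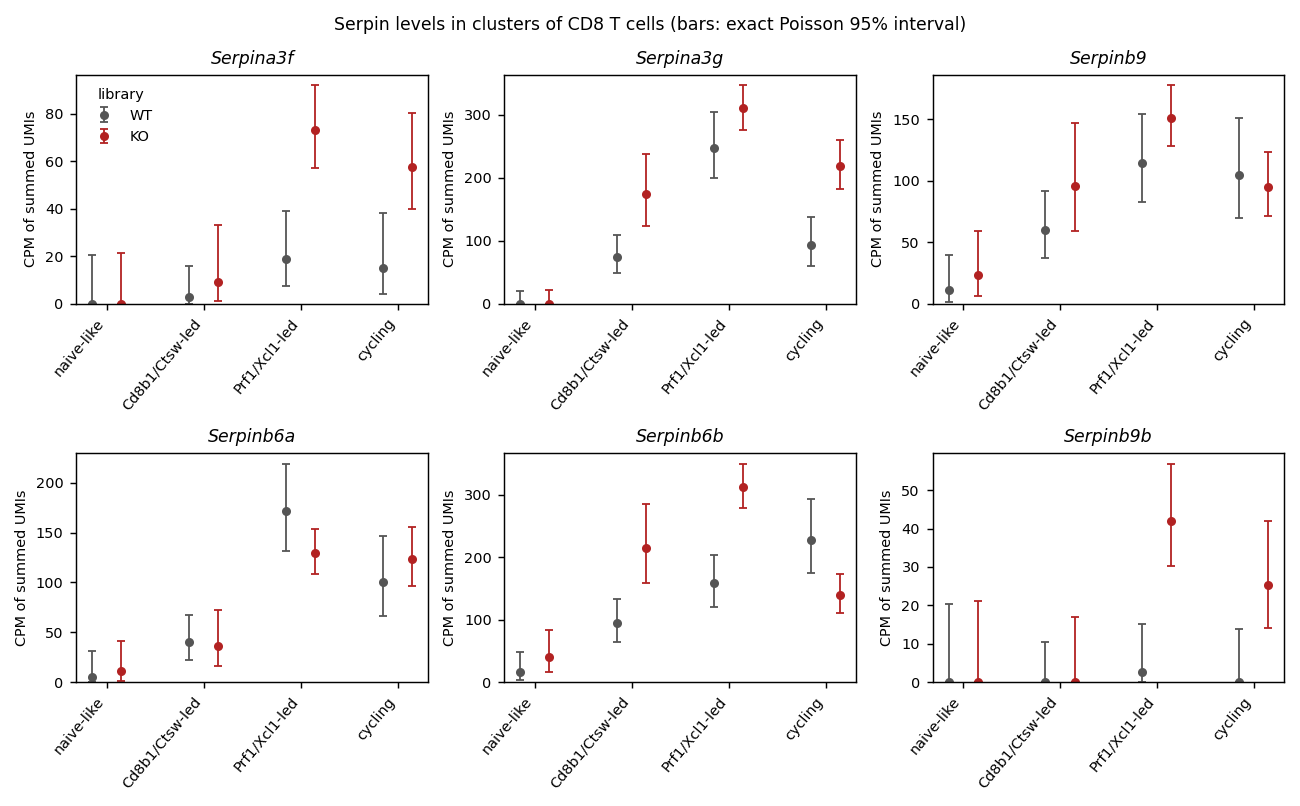
Level of each serpin in CPM (linear axis with its own scale in each panel, bars are exact 95% Poisson intervals) in 4 clusters of CD8 T cells, WT in grey beside KO in red. Serpina3g is at 0 in the naive-like cluster and at 247 (WT) and 310 (KO) CPM in the Prf1-led cluster, while Serpinb6b in the cycling cluster is higher in WT.

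Granzyme B is the serine protease that killer cells deliver into targets through pores made by perforin (Prf1). Gzmb was at 587 CPM in WT and 1552 CPM in KO CD8 T cells, a ratio of 2.65. After thinning, 46 of 160 WT cells and 93 of 178 KO cells had a Gzmb UMI. In KO, Serpinb9 was at 157 CPM in cells with Gzmb and 30.6 CPM in cells without, a ratio of 5.12 (3.26 to 8.45). Serpinb6b was at 289 and 90.4 CPM, a ratio of 3.19 (2.44 to 4.25), and Serpinb9b at 57 UMIs against 0, at least 9.83-fold higher against a floor of 3 counts over the group. These 3 members were called higher in KO, where 5.64% of tested genes were. In WT, Serpinb9 was at 94.1 and 65.3 CPM, a ratio of 1.44 (0.935 to 2.22). 1 member, Serpinb6a (115 and 70.8 CPM), was called higher in WT, where 6.89% of genes were, and that call was lost without its top cell.

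For Serpina3g, levels and shares of cells gave different pictures of its relation to Gzmb. In WT it was at 105 CPM in CD8 T cells with Gzmb and 136 CPM in those without, a ratio of 0.770 (0.536 to 1.09), and in KO at 242 and 235 CPM. Neither ratio was called. The thinned share of cells with Serpina3g was higher with Gzmb, at 23.9% against 10.5% in WT and 36.6% against 21.2% in KO. The differences had ranges of -5.08 to 33.2 (WT) and -4.58 to 34.1 (KO) percentage points. These ranges combine the limits of both shares and are too wide to decide whether the share differed with Gzmb. Outside the naive-like cells the level of Serpina3g was lower in WT cells with Gzmb, at 105 against 180 CPM (0.583, 0.406 to 0.829). The thinned share of these WT cells was 23.9% against 16.0%, a difference of 7.91 points with a range of -13.7 to 30.2. In KO the level was 242 against 312 CPM and the share 36.6% against 40.9%. There 0 members were called higher in WT (4.06% of genes) and 3 in KO (2.75%), Serpinb9, Serpinb6b and Serpinb9b. Serpinb9 was at 157 against 34.9 CPM in these KO cells, a ratio of 4.50. In regulatory T cells of WT, too, Serpina3g was lower in cells with Gzmb, 168 against 336 CPM (0.501, 0.321 to 0.762), from 25 and 31 cells. In those of KO it was at 433 against 575 CPM, from 17 and 13 cells, and the ratio of 0.752 (0.522 to 1.09) was not called.

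Cells with and without Gzmb differed in more than granzyme. Their median UMIs were 7325 and 4708 in WT and 11337 and 4797 in KO, and 21.7% and 9.65% of WT and 39.8% and 23.5% of KO cells were cycling. MHC class II genes and Cd74, which mark antigen-presenting cells, summed to 1277 and 120 CPM in WT cells with and without Gzmb, and to 188 and 392 CPM in KO. Among non-cycling cells outside the naive-like cluster these sums were 155 and 146 CPM in WT and 94.6 and 403 CPM in KO, and their part in the results was not tested. In those cells Serpinb9 was called higher with Gzmb in WT too, at 134 against 48.6 CPM (2.75, 1.48 to 5.30), beside 206 against 35.0 CPM in KO, and Serpina3g was at 337 and 362 CPM in KO. Taken over all non-cycling CD8 T cells, naive-like ones included, Serpina3g in KO was higher with Gzmb (log2 ratio 0.89).

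Over all CD8 T cells, the difference between the libraries in Serpinb9 varied with the Gzmb count. In CD8 T cells with 0 Gzmb UMIs after thinning, Serpinb9 was at 65.3 (WT) and 30.6 (KO) CPM, a ratio of 0.469 (0.267 to 0.798). In cells with 1 or 2 it was at 91.1 and 111 CPM, and in cells with 3 or more at 96.3 and 186 CPM, a ratio of 1.93 (1.27 to 3.05). Serpinb6b had KO over WT ratios of 0.755 (0.537 to 1.06), 0.974 (0.684 to 1.41) and 3.58 (2.37 to 5.63), of which only the last was called. Serpina3g was higher in KO at every Gzmb count, with ratios of 1.73, 2.05 and 2.42. So was Serpina3f, with 5.51 (2.42 to 14.7), 4.23 (1.04 to 37.1) and 5.77 (1.87 to 28.9), but on only 7, 2 and 3 WT UMIs. The bin of 3 or more held 19 WT and 56 KO cells. The bins were not matched for cycling or naive-like cells. In the bin of 0, Serpinb9 had 48 UMIs in WT and 21 in KO, of which 46 and 18 lay outside the naive-like cluster. Non-cycling cells there held 17 and 6 of these UMIs, at 48.6 and 35.0 CPM. The part of this make-up in the ratios was not tested.

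With Prf1 in place of Gzmb, Serpina3g took the opposite direction in WT. Prf1 UMIs were found in 25 of 160 WT and 45 of 178 KO CD8 T cells, of which 12 and 28 also had Gzmb. Serpina3g in WT was at 233 CPM in cells with Prf1 and 87.6 CPM in cells without, a ratio of 2.66 (1.90 to 3.72), and Serpina3f at 26.6 and 4.43 CPM. In WT 4 members were called higher with Prf1, where 8.31% of genes were, and in KO 4, where 5.21% were. In KO, Serpinb9 was at 165 and 84.6 CPM, Serpinb6b at 358 and 143 CPM, and Serpina3g at 280 and 216 CPM, a ratio of 1.3 (1.08 to 1.56) that was not called. Cells with Prf1 were deeper, with median UMIs of 11117 against 4834 in WT and 15271 against 5257 in KO.

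Set against Prf1, the library difference in Serpina3g was called only in the cells without it. Among cells with Prf1, Serpina3g was at 233 (WT) and 280 (KO) CPM, a ratio of 1.20 (0.913 to 1.60). Among cells without Prf1 it was at 87.6 and 216 CPM, a ratio of 2.47 (1.92 to 3.21). The 2 intervals do not overlap, though they cover counting error only. Serpinb9 and Serpinb6b were called only with Prf1, at 1.55 (1.04 to 2.36) and 2.29 (1.67 to 3.19), against 1.27 (0.920 to 1.77) and 1.16 (0.910 to 1.48) without. Serpina3f was called in both sets. Of cells without Prf1, 8.89% in WT and 25.6% in KO were cycling, against 36% and 51.1% of cells with it. The part of this make-up in the ratios was not tested.

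**Figure D4:**
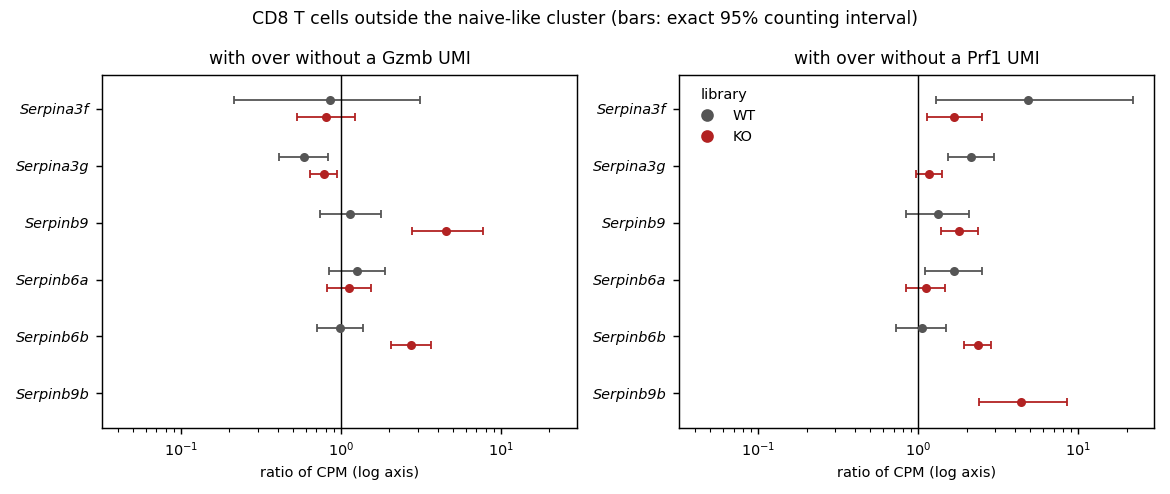
Ratio of CPM (log axis, bars are exact 95% counting intervals) between CD8 T cells with and without a Gzmb UMI (left) or a Prf1 UMI (right), outside the naive-like cluster, WT and KO apart; a blank row has no ratio because a set had 0 UMIs. Serpina3g in WT lies left of 1 for Gzmb (0.583) and right of it for Prf1 (2.14), whereas Serpinb9 and Serpinb6b in KO lie right of 1 in both panels.

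The other proteases and granule genes gave the setting. Of 20 listed, 12 were tested in CD8 T cells, and 5 were higher and 3 lower in KO, where 5.68% and 6.13% of all tested genes were. Prf1 was at 191 (WT) and 503 (KO) CPM. Gzmc, a granzyme of strongly stimulated killer cells, was at 3.29 and 438 CPM, but 551 of its 885 KO UMIs were in 1 cell, and without the top cell of each library it was at 1.66 and 168 CPM. Gzmf was at 0.822 and 69.8 CPM, and 1 cell held 107 of its 141 KO UMIs. Without the top cells it was at 0 and 17.1 CPM. Gzma was at 74.8 and 206 CPM, and at 62.6 and 128 CPM without its top cells. Gzmk was lower, at 206 and 119 CPM, as were Gzmm (15.6 and 4.95, under the 10 CPM mean without its top cells) and Ctsw (451 and 291), the gene of cathepsin W. In cDC1, where 3 serpins were higher, 0 of 6 tested proteases were called in either direction (2.36% of genes higher, 3.67% lower). In cDC2, where 3 serpins were also higher, 2 of 9, Gzma and Ctsw, were higher (4.18%). Both fell under the 10 CPM mean without the top cells. Conventional CD4 T cells had 1 of 8 higher, Gzmb (3.73%), and 1 lower, Ctsc (4.17%). In macrophages 1 of 9, Gzmb, was lower, at 101 and 27.1 CPM (5.22%). In mature dendritic cells 2 of 6, the cathepsin genes Ctsl and Ctsc, were higher (3.04%), and both calls were lost without the top cells. These values without top cells were chosen after the data were seen.

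Of the 56 other genes named Serpin, 33 had no UMI in any kept cell and 5 reached 10 CPM in a compared class. Serpine2, a secreted inhibitor of thrombin and plasminogen activators, was higher in KO, at 21.4 and 36.6 CPM in CD8 T cells. In conventional CD4 T cells it was at 8.44 and 111 CPM (13.2, 4.27 to 65.7), but 39 of the 55 KO UMIs and all 3 WT UMIs were in 1 cell each, and without those cells the levels were 0 and 33.3 CPM. Serpinb1a, an inhibitor of neutrophil proteases, was lower in KO cDC2 at 43.2 and 20.4 CPM, and Serpinf1 lower in cDC1 at 44.7 and 29.1 CPM. In macrophages Serpinb8 was higher at 6.67 and 22.1 CPM. The serpins outside the 6 members thus differed in both directions.

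Over the 12 profiles of 6 classes in 2 libraries, the clade B genes Serpinb9 and Serpinb6b ran together, as did the clade A pair. Pearson correlations of log2(CPM + 10) across 7155 genes placed Serpinb6b first for Serpinb9 and Serpinb9 first for Serpinb6b (r = 0.98), with Inpp5b next for both (0.96 and 0.98) and then Arrdc1 for Serpinb9 (0.96) and Sumo2 for Serpinb6b (0.95). Ipo7 (0.85), Srsf1 (0.83) and then Serpina3f (0.83) came first for Serpina3g. Serpina3f had Top1 (0.85), Zfp68 (0.84) and Exosc4 (0.83), and Serpinb6a had Pkn2 (0.94), Acads (0.93) and Sh3kbp1 (0.91). Gzmc came first for Serpinb9b (0.91), followed by Guk1 (0.87) and Lzic (0.83), but its mean of 3.30 CPM leaves that order to a few counts. Other pairs of clade B members had correlations of 0.24 to 0.45. Serpinb9 and Serpinb6b were far higher in the mature dendritic cell profiles than in the others, and the weight of those profiles was not tested. Between the clade A pair and these 2 genes the correlation was near 0 or below, such as -0.18 for Serpina3g and Serpinb9. The other pairs across the clades were higher. Serpina3f and Serpina3g had 0.71 and 0.56 with Serpinb9b, which had few counts, and 0.40 and 0.20 with Serpinb6a. These profiles share libraries, and classes of 1 library share its depth.

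The cells carrying Serpina3g within a class were then compared with the rest of that class, a comparison chosen after the values were seen. In cDC1, 15 WT and 24 KO cells had a Serpina3g UMI after thinning. Those cells had far more Cxcl9, the interferon gamma-induced chemokine that draws CXCR3+ T cells, at 645 against 33.7 CPM in WT (19.1, 14.6 to 25.2) and 948 against 261 CPM in KO (3.63, 3.20 to 4.11). In WT 119 of the 163 Cxcl9 UMIs were in 1 cell, and without the top cells the WT ratio was 6.75 (4.51 to 9.99). They also had more Iigp1, an interferon-induced GTPase, at 230 against 4.81 CPM in WT and 295 against 46.9 CPM in KO. Serpinb9 was at 51.5 against 7.62 CPM in WT and 81.0 against 16.3 CPM in KO, and Cd40 at 95 against 16.4 and 138 against 38.4 CPM. Serpina3f, which shares sequence with Serpina3g, was at 57.2 against 5.91 CPM in KO and 23.8 against 0 CPM in WT.

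Of the 6 leading genes of cDC1, 3 also led in cDC2: Serpina3f, Cxcl9 and Iigp1. There 8 WT and 29 KO cells carried Serpina3g, with Cxcl9 at 765 against 143 CPM in WT (185 against 49.0 CPM without the top cells) and 1904 against 247 CPM in KO (7.71, 6.65 to 8.96). Gbp2, another interferon-induced GTPase, was at 392 against 73.6 CPM in WT and 598 against 245 CPM in KO. Median UMIs of cells with and without Serpina3g differed little in cDC1 (18607 and 16016 in WT, 18023 and 16649 in KO) and in cDC2 (13207 and 13781 in WT, 14180 and 13527 in KO). In WT cDC1 40% of cells with and 22.5% of cells without Serpina3g were cycling. In CD8 T cells outside the naive-like cluster the list led by Cd200r1 (79.3 against 19.8 CPM in WT, 73.7 against 24.4 in KO) also held Ccl4, a chemokine of activated killer cells, at 921 against 381 CPM in WT and 2016 against 1293 CPM in KO, and the KO call was lost without the top cells (1.27, 1.17 to 1.38). Median UMIs of these CD8 T cells were 5196 with and 5736 without Serpina3g in WT, and 13914 and 8382 in KO. The 8 to 52 cells with Serpina3g behind each such value limit its precision, and the intervals cover counting error only.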

How the data were processed

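The authors deposited gene by cell matrices of raw UMI counts, 1 per library. The submitters' processing notes name Cell Ranger 1.3 and mm10, whereas the file headers name 3.0.2. Genes keep the deposited symbols.

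Barcodes under 500 UMIs or 300 genes, or above 10% mitochondrial UMIs, were dropped, which removed 132 (WT) and 133 (KO) barcodes. Scrublet called 5 and 3 doublets (0.506% and 0.276%), which were removed. Leiden clustering (scanpy 1.11.5, resolution 1, 2000 variable genes, 30 components, 15 neighbours) left out serpins, granzymes, Prf1 and Tcf7. Library depth is the total UMI count. Intervals are exact Poisson (levels), conditional binomial (ratios) and Clopper-Pearson (shares) at 95%, from scipy 1.17.1. Ranges for differences of shares combine the limits of both shares and are wider than 95% intervals. PCR and cell sampling are not covered. The computation was tested on simulated data.

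Named genes were the 6 members, other Serpin genes with a mean of at least 10 CPM in a compared class, 20 listed proteases and the 3 genes most like each member. One of the other Serpin genes is not reported here. The members and lists were chosen with earlier results of these data known. Alternatives covered cell filters, classes, depth, thinning and thresholds.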

Additional observations from a re-analysis of the deposited data

How the results depend on the processing

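No paired analysis was possible because each group was 1 library, and no library could be left out. Ratios of KO over WT with no UMI in a library were not counted here, so Serpinb9b in CD8 T cells without its top cells is missing. Of 294 counted log2 ratios under alternative settings, 261 kept their call, 22 lost it, 9 gained it and 2 changed both call and direction. The latter were Serpinb9 in cDC2 with classes from marker UMIs alone (-0.16) and Serpinb6a in macrophages as a mean of the CPM of each cell (-0.24). Of 220 log2 ratios with over without Gzmb, 189 kept their call, 24 gained a call and 3 lost it. Another 4 changed both call and direction, all with Prf1 in place of Gzmb. The latter were Serpina3g in WT CD8 T cells (1.41) and outside the naive-like cells (1.09), and Serpina3f outside the naive-like cells in WT (2.27) and KO (0.75). Direction was not compared for ratios that stayed uncalled, and some of those turned. Serpina3g in KO outside the naive-like cells, for example, had a log2 ratio of -0.37 with Gzmb and 0.22 with Prf1.

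Members called higher in KO in conventional CD4 T cells went from 1 to 2 with marker UMIs alone, without cells holding foreign marker UMIs, or with the mean over cells, and to 3 without cycling cells. Without the top cell of each gene, mature dendritic cells had 1 and macrophages 0. With the mean over cells macrophages had 1 lower. At a mean of at least 50 CPM, CD8 T cells had 3 and cDC1, cDC2 and mature dendritic cells 1 each, since fewer genes were tested. At 2-fold, CD8 T cells had 2 and macrophages 0. With Gzmb, members called higher in WT CD8 T cells went from 1 to 2 (foreign marker cells out, no cycling cells, or thinning to 1000 UMIs), 3 (mean over cells, or at least 3 raw Gzmb UMIs), 4 (Prf1) and 0 (no top cell, or no ribosomal and mitochondrial genes). KO had 5 with the mean over cells and with at least 3 raw UMIs. Outside the naive-like cells, WT had 1 with the mean over cells, without cycling cells or at 1000 UMIs, 2 with at least 3 raw UMIs and 3 with Prf1. Members called lower there in WT went from 1 to 2 with marker UMIs alone and to 0 with the mean over cells or Prf1, and in KO from 0 to 1 at 1000 UMIs. The cause of the other changes was not tested. The mean over cells was called by its size alone, without an interval. For named genes that are no members, leaving out the top cell was added after the data were seen. It turned the log2 ratio of Cxcl10 in WT cDC2 with over without Serpina3g to -0.58.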
